A study of Mus musculus with 4 samples.

Results

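The Notch pathway genes described here are 3 receptors (Notch1, Notch2, Notch3), 3 ligands (Dll1, Dll3, Jag1), the glycosyltransferase Lfng and 3 target genes (Hes1, Hey1, Hey2). They were chosen by name, and every probe set assigned to one of them was taken: 14 probe sets for 10 genes, of 45141 probe sets and 17097 named genes in all. Expression was measured on 4 Affymetrix arrays of mouse cells, with 1 array in each of 4 groups and therefore no replicates. The groups were Snai1 knockout Flk1+ cells, Snai1 knockout Flk1- cells, Flk1+ cells of the F/F control and Flk1- cells of the F/F control. All came from embryonic stem cells grown as embryoid bodies, clusters in which stem cells differentiate together, without an added agent named in the labels. The embryoid bodies were dissociated and split with an antibody against Flk1, the VEGF receptor encoded by Kdr. The labels give day 4 for 3 of the groups. For the knockout Flk1- cells they give both day 4 and day 5, so the genotype comparison in Flk1- cells and the sort comparison in the knockout could also contain a difference in age. How many clones or cultures each line stands for was not stated in the labels.

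Notch signalling passes between touching cells. A ligand of the Delta-like or Jagged family on one cell binds a Notch receptor on its neighbour, proteases cut the receptor, and its intracellular part enters the nucleus, where it joins the DNA-binding protein RBPJ and switches on genes of the Hes and Hey families, which encode transcriptional repressors. In the early embryo the pathway is known for its parts in somite formation, in the choice between arterial and venous endothelium, and in the heart and early blood. Snai1, the gene deleted in the knockout line, encodes a transcriptional repressor known for its part in the epithelial to mesenchymal transition.

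The values are log2 expression values as the authors deposited them, so a difference of 1 is 2-fold. A gene is represented by the probe set whose mean was highest over the arrays, and levels of different probe sets are not compared, since each has its own affinity. A floor of 3.19 on the log2 scale, below which 40% of the gene values on the 4 arrays lie, separated genes with signal from those without. A gene counted as apart in a comparison when its 2 arrays differed 2-fold or more and at least 1 of them was above the floor. With 1 array per group no test was possible, and no p-value is given. In its place stands the share of all genes above the floor that met the same rule. A second yardstick is the gap between the probe sets of one gene in the same comparison. It was taken over the 4122 genes with several probe sets above the floor. Its median was 0.22 to 0.33 and its 90th percentile 0.55 to 0.79 on the log2 scale. The probe sets of a gene are read on the same arrays, so the gap holds no variation between cultures, sorts or arrays. It does not stand in for replicates.

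On every array between 10195 and 10302 genes were above the floor, and all 10 Notch pathway genes were. Kdr was at 9.03 in knockout Flk1+ cells and 3.88 in knockout Flk1- cells, and at 8.92 in control Flk1+ cells and 4.55 in control Flk1- cells, as the sort labels say. Snai1 was below the floor on all 4 arrays, with values of 1.88 and 1.94 in knockout Flk1+ and Flk1- cells, against 2.56 and 2.42 in the corresponding control cells, so its level does not check the genotype labels. The Gapdh control probe sets, whose 3' signal exceeds their 5' signal by more where RNA is degraded, gave a 3' to 5' difference between 1.47 and 2.05 on the log2 scale, lowest in knockout Flk1+ cells. For the beta-actin control probe sets the same difference was between -0.32 and -0.03, with no excess of 3' signal on any array. It was also lowest in knockout Flk1+ cells. In a bulk sample, fewer cells of a type and less RNA per cell cannot be told apart.

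Hey2 was the gene of the 10 that stood furthest apart. It was higher in Flk1+ than in Flk1- cells in both genotypes, by 2.41-fold in the knockout and 2.20-fold in the control, and lower in the knockout than in the control in both fractions, by 1.61-fold in Flk1+ and 1.77-fold in Flk1- cells. The receptors Notch1 and Notch2 were also higher in the Flk1+ fraction of both genotypes, by less than 2-fold except on the second Notch1 probe set, which was 2.37-fold higher in the knockout. The ligand gene Jag1 was higher in the knockout within Flk1+ cells and lower in the knockout within Flk1- cells, in both of its probe sets. Notch3 had the same signs, with a difference of -0.003 in Flk1- cells on its first set.

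**Figure D1:**
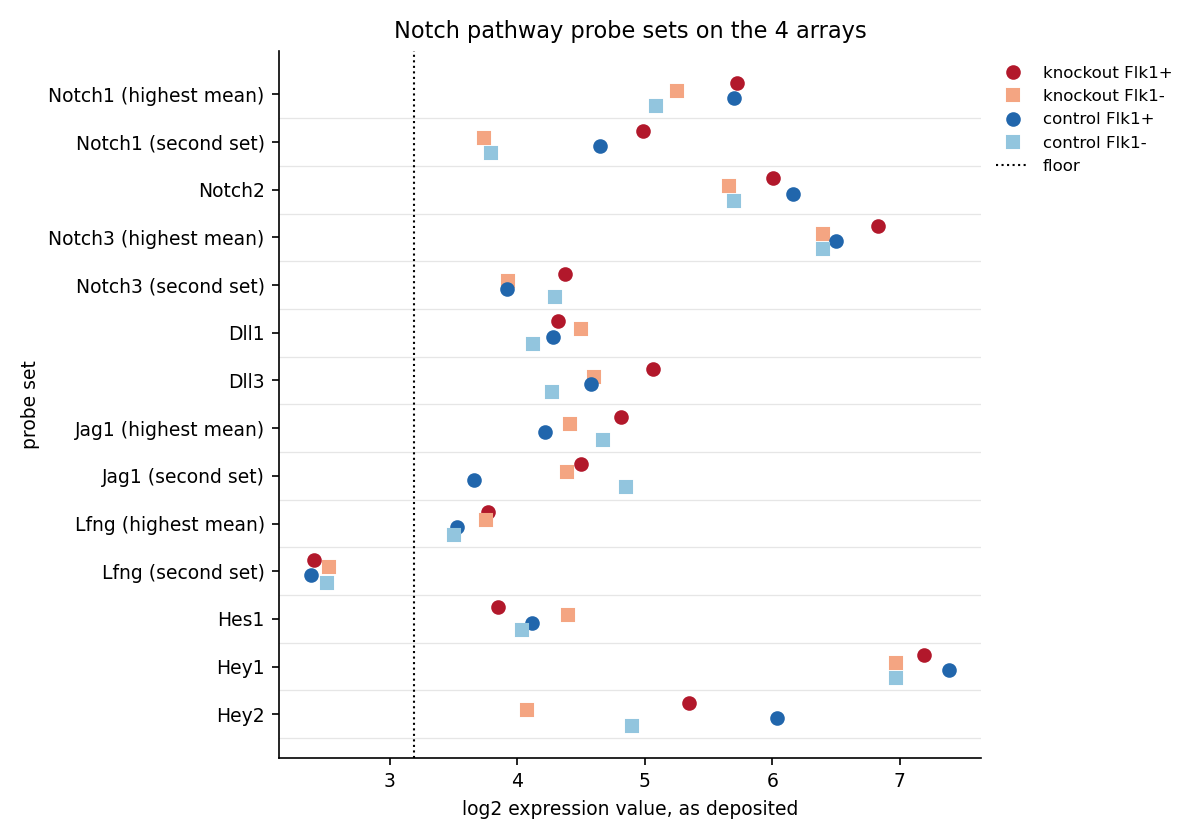
Log2 expression values of the 14 probe sets of the Notch pathway genes (rows) on the 4 arrays (1 point per array; circles are Flk1+ cells, squares Flk1- cells, red shades the knockout, blue shades the control), with the floor of 3.19 as a dotted line. Hey2 spans the widest range, from 4.08 in knockout Flk1- cells to 6.04 in control Flk1+ cells, and the second Lfng probe set lies below the floor on every array.

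By the 2-fold rule, 0 of the 10 genes were apart between knockout and control in Flk1+ cells, where 1.85% of the 10655 genes above the floor were. In Flk1- cells it was also 0 of 10, against 1.34% of 10533 genes. In the sort comparison 1 of the 10, Hey2, was 2-fold or more higher in Flk1+ cells of the knockout, against 1.62% of 10688 genes, and the same gene was in the control, against 1.20% of 10622 genes. A single gene in 10 is too few to set against these shares. At a 1.5-fold rule (0.58 on the log2 scale) the genes were Jag1, which was higher, and Hey2, which was lower, for the genotype in Flk1+ cells (7.68% of all genes), Hey2, which was lower, in Flk1- cells (5.51%), Hey2 for the sort in the knockout (15.0%), and Notch1 and Hey2, both higher, for the sort in the control (8.25%).

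For the genotype the signed differences of the 10 genes went both ways. Their median log2 difference between knockout and control was 0.03 in Flk1+ cells, with 6 genes higher and 4 lower, and the median of all genes above the floor was -0.05. In Flk1- cells the median was 0.08, with 5 higher and 5 lower, and that of all genes was 0.04. Without the sign, the median size of the log2 difference was 0.26 for the 10 genes and 0.18 for all genes in Flk1+ cells, and 0.26 for the 10 genes and 0.15 for all genes in Flk1- cells. Between Flk1+ and Flk1- cells the median log2 difference of the 10 was 0.37 in the knockout, with 8 genes higher and 2 lower, where all genes had a median of -0.08. In the control it was 0.23, with 9 higher and 1 lower, where all genes had one of -0.01. These counts include small differences. In the control, Lfng, Hes1, Notch3 and Dll1 were higher by 0.02, 0.08, 0.10 and 0.16, below the median gap between probe sets there (0.24). In the knockout, Lfng and Hey1 were higher by 0.02 and 0.22, below the median gap there (0.33). When all probe sets of a gene were averaged, 7 were higher and 3 lower in each of the sort comparisons, and without the _s_at set of Notch3 it was 8 and 2 in the control. Centring the arrays on the median moved the median of all genes in the knockout sort comparison to 0.09 and that of the 10 genes to 0.52.

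**Figure D2:**
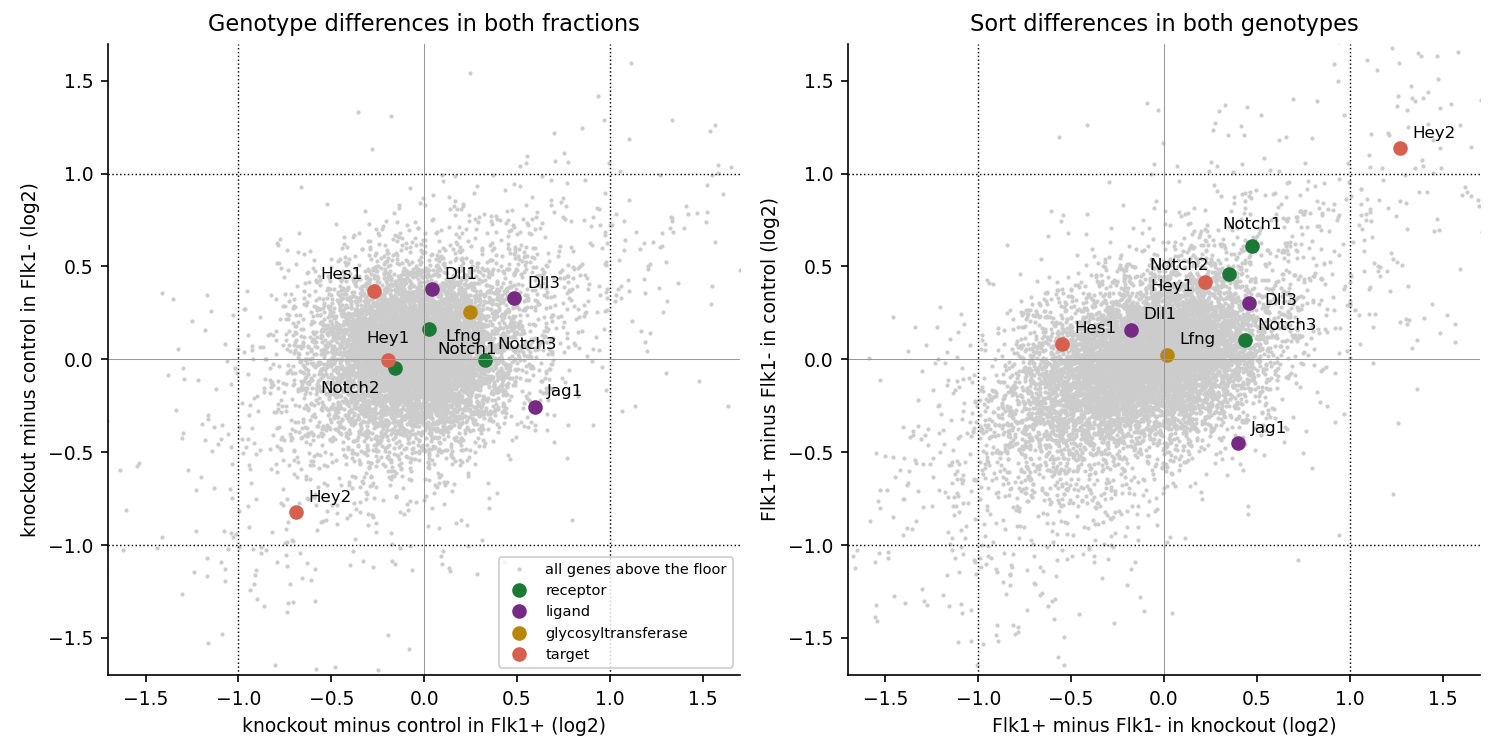
Log2 differences of the 10 Notch pathway genes (coloured by role) and of all genes above the floor in both comparisons of a panel (grey), for knockout minus control in Flk1+ (x axis) against Flk1- cells (y axis) on the left, and for Flk1+ minus Flk1- in the knockout (x axis) against the control (y axis) on the right. Dotted lines mark 2-fold and the axes end at 1.7 in either direction, so grey points further out are not shown; Hey2 lies beyond the lines in the sort panel, and Jag1 has opposite signs along the axes of both panels.

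Among the receptors, which carry the signal into the receiving cell, Notch1 was higher in Flk1+ cells in both of its probe sets. The first, with the highest mean, was at 5.73 in knockout Flk1+ cells and 5.25 in knockout Flk1- cells, and at 5.70 in control Flk1+ cells and 5.09 in control Flk1- cells. Knockout and control differed by only 0.02 in Flk1+ cells and 0.16 in Flk1- cells on this set. The second Notch1 probe set was at 4.99 in knockout Flk1+ cells and 3.74 in knockout Flk1- cells, and at 4.65 in control Flk1+ cells and 3.79 in control Flk1- cells. Its sort difference was 1.25 in the knockout, past the 2-fold line, and 0.86 in the control. The probe sets thus put the Notch1 sort difference at 0.47 and 1.25 in the knockout, a gap of 0.77 that is close to the 90th percentile of such gaps there (0.79), and at 0.61 and 0.86 in the control.

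Notch2, a second receptor with a single probe set, had values of 6.01 in knockout Flk1+ cells and 5.66 in knockout Flk1- cells, and of 6.16 in control Flk1+ cells and 5.70 in control Flk1- cells. It was higher in Flk1+ cells by 0.35 in the knockout and 0.46 in the control. The genotype differences were -0.16 in Flk1+ and -0.04 in Flk1- cells. In the control, 12.7% of all genes above the floor were at least as far apart by sort, and in the knockout 35.2%.

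Notch3, known best from vascular smooth muscle and pericytes, had a probe set at 6.83 in knockout Flk1+ cells and between 6.39 and 6.50 on the other arrays. Its name ends in _s_at, which marks a set that can match more than 1 transcript. The other Notch3 probe set was at 4.38 in knockout Flk1+ cells and 3.93 in knockout Flk1- cells, and at 3.92 in control Flk1+ cells and 4.30 in control Flk1- cells. Both sets were highest in knockout Flk1+ cells, with genotype differences of 0.33 and 0.46 there. They disagreed in the control sort comparison, at 0.10 and -0.38, and in the genotype comparison in Flk1- cells, at -0.003 and -0.37. The difference of the genotype differences, Flk1+ minus Flk1-, was 0.33 on the first set and 0.83 on the second. Its neighbours in order on the first set, control Flk1+ and both Flk1- arrays, lay within 0.11, less than the median gap between probe sets of a gene.

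**Figure D3:**
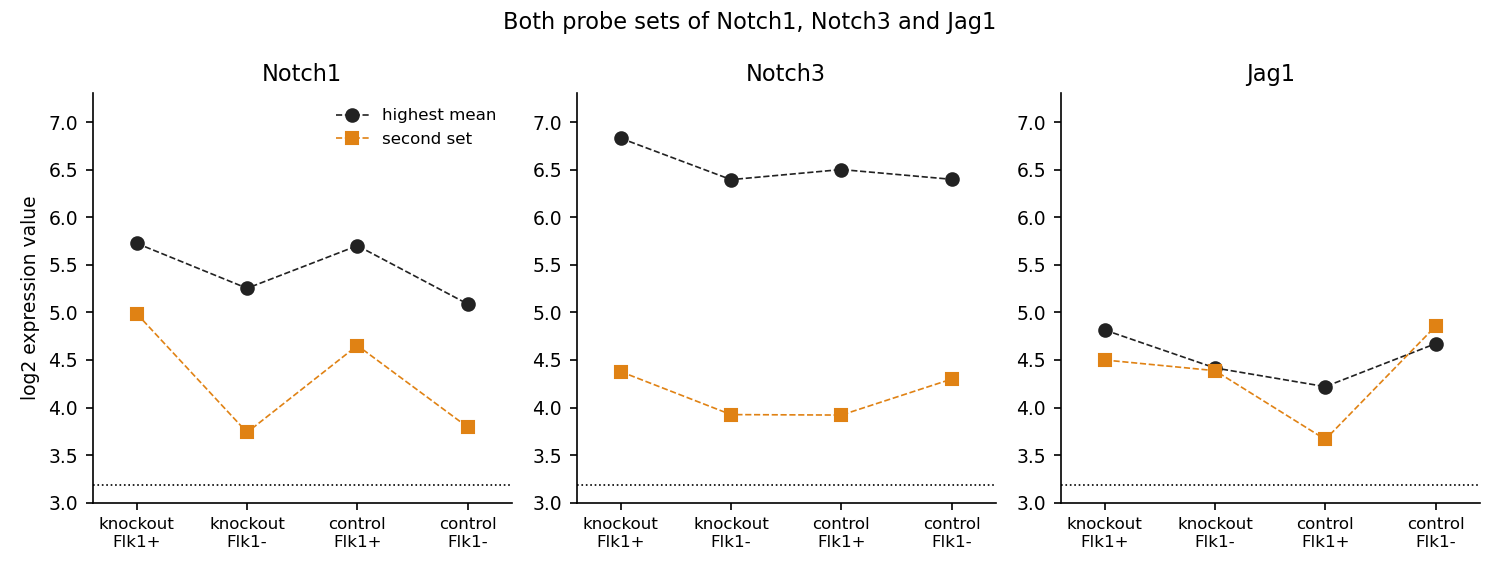
Log2 expression values (y axis) on the 4 arrays (x axis) of both probe sets of Notch1, Notch3 and Jag1, joined by dashed lines as a guide to the eye, with the floor dotted. Both Notch1 sets are higher on the Flk1+ arrays, both Jag1 sets are lowest in control Flk1+ cells, and the Notch3 sets differ in where the control Flk1- array lies.

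Of the ligands, Dll1, a transmembrane ligand that activates Notch in neighbouring cells, varied little. It was at 4.32 in knockout Flk1+ cells and 4.50 in knockout Flk1- cells, and at 4.28 in control Flk1+ cells and 4.12 in control Flk1- cells. The genotype difference was 0.04 in Flk1+ and 0.38 in Flk1- cells, and 14.9% of all genes were at least as far apart in Flk1- cells.

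Dll3, a divergent ligand that is known to act inside the cell that makes it and is needed for somite formation, was at 5.06 in knockout Flk1+ cells and 4.60 in knockout Flk1- cells, and at 4.58 in control Flk1+ cells and 4.27 in control Flk1- cells. The knockout was higher in both fractions, by 0.49 and 0.33, and Flk1+ cells were higher in both genotypes, by 0.46 in the knockout and 0.30 in the control. For the genotype in Flk1+ cells 11.6% of all genes were at least as far apart. Dll3, Lfng and several targets are known together from the presomitic mesoderm. Of 7 paraxial mesoderm markers, Mesp2, Hes7 and Ripply2 were below the floor on all 4 arrays. In each genotype, 4 in the Flk1+ genotype comparison and the knockout sort and 3 in the other comparisons could be tested. Of those tested, 0 were 2-fold apart in any of the 4 comparisons. The summed log2 level of these 7 markers was 21.4 in knockout Flk1+ cells and 20.5 in knockout Flk1- cells, and 20.5 in control Flk1+ cells and 20.0 in control Flk1- cells.

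Jag1, the ligand of the Jagged family best known from vessels and heart, was at 4.82 in knockout Flk1+ cells and 4.42 in knockout Flk1- cells, and at 4.22 in control Flk1+ cells and 4.67 in control Flk1- cells. The second probe set was at 4.50 in knockout Flk1+ cells and 4.39 in knockout Flk1- cells, and at 3.67 in control Flk1+ cells and 4.86 in control Flk1- cells. The array lowest in both sets was control Flk1+. Knockout minus control was 0.59 and 0.83 in Flk1+ cells in the 2 sets, and -0.26 and -0.47 in Flk1- cells. Flk1+ minus Flk1- was 0.40 and 0.11 in the knockout, and -0.45 and -1.19 in the control, where the second set was past the 2-fold line. The difference of the genotype differences, Flk1+ minus Flk1-, was 0.85 on the first set, and 3.10% of the 10955 genes above the floor on at least 1 array were at least as far from 0. It was 1.30 on the second set. With 1 array per group this difference was not tested.

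Lfng encodes a glycosyltransferase that adds a sugar to Notch receptors and so alters which ligands they respond to. Its probe set with the highest mean was at 3.78 in knockout Flk1+ cells and 3.76 in knockout Flk1- cells, and at 3.53 in control Flk1+ cells and 3.50 in control Flk1- cells. This set was higher in the knockout by 0.25 in Flk1+ and 0.26 in Flk1- cells, which is about the median gap between probe sets of a gene. The sort differences were 0.02 in both genotypes. The second set, below the floor at 2.39 to 2.53, had a genotype difference of 0.02 in both fractions, and averaging the sets turned the sort differences to -0.05 in both genotypes.

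Promoter sequences are shown for the genes past 1.5-fold in some comparison (Hey2, Jag1, Notch1) and for Lfng, which held a match to the RBPJ motif. They are the 250 bases before the transcription start, 5′ to 3′ on the strand of the gene, from RefSeq on GRCm38.p6, where 8 of the 10 genes have an entry, and Hes1 and Hey1 have none. The capitals mark matches on either strand to GTGGGAA, a motif bound by RBPJ, and to CAGGTG, the E-box known to be bound by Snail proteins. The 2 motifs do not overlap in these windows. The Hey2 window, chr10:30842781-30843033 on the minus strand, runs 3 bases past the start to keep the last match whole. The Jag1 window is chr2:137116521-137116770, minus strand, the Notch1 window is chr2:26503823-26504072, minus strand, and the Lfng window is chr5:140607091-140607340, plus strand.
Hey2: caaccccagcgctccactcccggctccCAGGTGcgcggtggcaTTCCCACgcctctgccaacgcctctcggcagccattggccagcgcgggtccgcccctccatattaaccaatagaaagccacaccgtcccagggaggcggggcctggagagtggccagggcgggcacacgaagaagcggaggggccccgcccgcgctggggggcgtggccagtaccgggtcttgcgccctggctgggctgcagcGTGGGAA
Jag1: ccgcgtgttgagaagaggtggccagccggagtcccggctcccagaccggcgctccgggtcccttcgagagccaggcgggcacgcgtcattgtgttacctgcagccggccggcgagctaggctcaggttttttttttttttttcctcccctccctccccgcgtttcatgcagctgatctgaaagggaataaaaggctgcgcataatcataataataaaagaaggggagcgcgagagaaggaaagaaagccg
Notch1: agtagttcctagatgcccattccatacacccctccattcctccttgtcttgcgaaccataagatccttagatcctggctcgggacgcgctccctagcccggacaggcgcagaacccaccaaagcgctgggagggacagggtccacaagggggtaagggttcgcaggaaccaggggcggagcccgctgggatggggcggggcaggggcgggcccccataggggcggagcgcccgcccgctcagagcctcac
Lfng: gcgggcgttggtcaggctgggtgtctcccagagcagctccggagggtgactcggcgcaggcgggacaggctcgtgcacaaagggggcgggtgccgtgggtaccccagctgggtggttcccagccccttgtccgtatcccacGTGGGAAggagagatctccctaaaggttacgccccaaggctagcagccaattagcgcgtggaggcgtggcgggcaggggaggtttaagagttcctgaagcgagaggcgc

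Hey2 held GTGGGAA at 2 places, 207 bases before the start on the opposite strand and 4 bases before it on its own strand, and CAGGTG 223 bases before it. Lfng held GTGGGAA 109 bases before its start. Of the other 6 genes with an entry, Dll3 and the second of the 2 starts of Dll1 held CAGGTG, 228 and 155 bases before the start, and Notch1, Notch2, Notch3 and Jag1 held neither motif. Among all 32851 promoters of 300 bases (250 before and 50 after the start), 6.38% held GTGGGAA and 20.2% held CAGGTG. These matches describe letters in a short window and are not evidence of binding.

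The targets are transcriptional repressors whose RNA is commonly read as a sign of Notch activity. Hey2, known from arterial endothelium and from the heart ventricle, had values of 5.35 in knockout Flk1+ cells and 4.08 in knockout Flk1- cells, and of 6.04 in control Flk1+ cells and 4.90 in control Flk1- cells. The order from high to low was control Flk1+, knockout Flk1+, control Flk1- and knockout Flk1-, with steps of 0.69, 0.45 and 0.82. The step of 0.45, between knockout Flk1+ and control Flk1- cells, is not one of the 4 comparisons in which gaps between probe sets were taken. It is smaller than the lowest 90th percentile of those gaps, 0.55. The sort differences were 1.27 in the knockout and 1.14 in the control, and 0.99% and 0.96% of all genes were higher in Flk1+ cells by at least as much. The genotype differences were -0.69 in Flk1+ and -0.82 in Flk1- cells, and 2.81% and 1.39% of all genes were lower in the knockout by at least as much. The difference of the genotype differences was 0.13. Hey2 has a single probe set, so no second set bears on these values.

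Cell type markers also differed between the arrays, in directions that varied by list. The 14 markers of vascular and blood mesoderm, such as Etv2, Tal1 and Cdh5, included Kdr, the gene of the sort antigen. Its sort difference, 35.5-fold in the knockout and 20.8-fold in the control, is what the sort selects for. Of the 14, 13 were above the floor for the knockout sort comparison. In it 12, Kdr among them, were 2-fold or more higher in Flk1+ cells. The 1 left, Pecam1, was 1.57-fold lower in Flk1+ cells there. In the control 12 of 14, again with Kdr, were 2-fold or more higher in Flk1+ cells. Of the others, Pecam1 was 1.11-fold higher and Tie1, set against the floor, at least 1.09-fold higher. The Flk1- value was below the floor for 7 of the 12 in the knockout and 8 of the 12 in the control. Set against the floor, 10 of the 12 were at least 2-fold higher in either genotype, and the others, Sox7 and Esam, were at least 1.16-fold and 1.96-fold higher in the knockout and at least 1.31-fold and 1.90-fold higher in the control. The summed log2 level of the 14 markers, Kdr included, was 75.5 in Flk1+ and 42.1 in Flk1- cells of the knockout. In the control it was 79.2 in Flk1+ and 45.3 in Flk1- cells. On both Flk1- arrays 8 of the 14 were below the floor. For the genotype, 0 of the 14 were 2-fold apart in Flk1+ cells, with 9 lower and 5 higher in the knockout and a median log2 difference of -0.23. In Flk1- cells 6 of them were above the floor on at least 1 array, with 4 lower and 2 higher in the knockout, and 1, the blood and endothelial regulator Lmo2, was 2-fold lower, by 3.90-fold. Of 9 lateral plate and cardiac mesoderm markers, 4 of 8 above the floor were 2-fold lower in knockout than in control Flk1+ cells (Hand1, Foxf1, Tnnt2 and Actc1), and 6 of 9 were in Flk1- cells (those 4 with Tbx20 and Myl7). Their summed log2 level was 47.4 in knockout and 60.0 in control Flk1+ cells, and 42.1 in knockout and 59.7 in control Flk1- cells. Of 9 pluripotent and epiblast markers, all 7 above the floor were 2-fold or more higher in knockout than in control Flk1+ cells, with a summed log2 level of 47.5 in the knockout and 34.3 in the control. In Flk1- cells 1 of 9 was, with sums of 66.9 in the knockout and 58.9 in the control. By sort these markers were lower in Flk1+ cells, 8 of 9 by 2-fold or more in the knockout and 9 of 9 in the control.

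Other marker lists differed as well. The 7 primitive erythroid markers included Hba-x and Hbb-bh1, which encode embryonic globin chains. Of these 7, 3 of 6 above the floor were 2-fold lower in knockout than in control Flk1+ cells and 6 of 7 were in Flk1- cells. Set against the floor, 5 of those 6 in Flk1- cells were at least 2-fold lower, and Epor was at least 1.53-fold lower. The summed log2 level of the 7 markers was 19.2 in knockout and 28.9 in control Flk1+ cells. In Flk1- cells it was 19.2 in the knockout and 50.0 in the control. By sort, 5 of 7 were 2-fold lower in Flk1+ than in Flk1- cells of the control. Of 8 fibroblast and mural markers, 4 of 6 above the floor were 2-fold lower in knockout than in control Flk1+ cells and 3 of 6 were in Flk1- cells. Their summed level was 32.3 in knockout and 41.5 in control Flk1+ cells, and 28.0 in knockout and 35.9 in control Flk1- cells. Of 7 epithelial markers 4 (Cdh1, Epcam, Cldn6 and Cldn7) were 2-fold higher in knockout than in control Flk1+ cells and 0 were in Flk1- cells, and 5 were 2-fold lower in Flk1+ than in Flk1- cells of the control. Their summed level was 53.5 in knockout and 46.5 in control Flk1+ cells, and 57.0 in knockout and 53.8 in control Flk1- cells. Of the primitive streak, neuroectoderm and endoderm markers, no more than 2 of a list were 2-fold apart in any of the 4 comparisons. Whether any of these marker lists has a part in the values of Hey2, or of Jag1 and Dll3, was not tested.

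Hey1, the closest relative of Hey2 and likewise known from vessels and heart, was at 7.19 in knockout Flk1+ cells and 6.97 in knockout Flk1- cells, and at 7.39 in control Flk1+ cells and 6.97 in control Flk1- cells. It shared the direction of Hey2 by sort, with differences of 0.22 in the knockout and 0.41 in the control. Its genotype difference was -0.20 in Flk1+ cells and -0.003 in Flk1- cells, where Hey2 had -0.82. In the Flk1- comparison 98.7% of all genes were at least as far apart as Hey1.

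Hes1, a target whose RNA and protein oscillate in many progenitor cells, was at 3.85 in knockout Flk1+ cells and 4.40 in knockout Flk1- cells, and at 4.12 in control Flk1+ cells and 4.03 in control Flk1- cells. The knockout Flk1- array was the highest and the knockout Flk1+ array the lowest. Knockout minus control was -0.27 in Flk1+ and 0.37 in Flk1- cells. The sort difference was -0.55 in the knockout and 0.08 in the control. The difference of the genotype differences was -0.63, and 8.64% of all genes were at least as far from 0. In Flk1+ cells all 3 targets were lower in the knockout, Hey2 by 0.69, Hey1 by 0.20 and Hes1 by 0.27 on the log2 scale. There 46.0% of all genes above the floor were at least as far apart as Hey1, and 32.4% as Hes1. Of 9 further listed target genes above the floor in that comparison, 6 were higher and 3 lower in the knockout. The median log2 difference of the 9 was 0.14. Higher were Hes6, Nrarp, Tbx6, Gata2, Id1 and Id3, and lower were Efnb2, Myc and Ccnd1. Nrarp was higher by only 0.0003, and Tbx6 was close to the floor, at 3.24 in knockout Flk1+ cells. Whether these listed genes respond to Notch in these cells was not tested. In Flk1- cells, where the labels of the knockout array name both days, Hey2 was lower in the knockout, Hey1 had a difference of -0.003 and Hes1 was higher.

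The rest of the pathway was described with a list of 60 further genes, of which 53 had a named probe set here and 43 were above the floor on at least 1 array. For the genotype 1 of 39 tested genes was 2-fold apart in Flk1+ cells and 1 of 42 in Flk1- cells, in both cases Dlk1, where 1.85% and 1.34% of all genes were. The median log2 difference of the tested genes was 0.07 in Flk1+ cells, with one of -0.05 for all genes, and 0.09 in Flk1- cells, with one of 0.04 for all genes. By sort, among 42 tested genes of the knockout, 3 were 2-fold higher in Flk1+ cells and 2 were lower. Set against the floor, 4 of these 5 were at least 2-fold apart, and Dner was at least 1.55-fold lower. Among 41 tested genes of the control, 2 were higher in Flk1+ cells and 1 was lower. The share of all genes called in either direction was 3.79% for the sort in the knockout and 2.70% in the control. By direction, 173 of all 10688 tested genes were higher and 232 lower in the knockout. In the control, 127 of 10622 were higher and 160 lower.

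**Figure D4:**
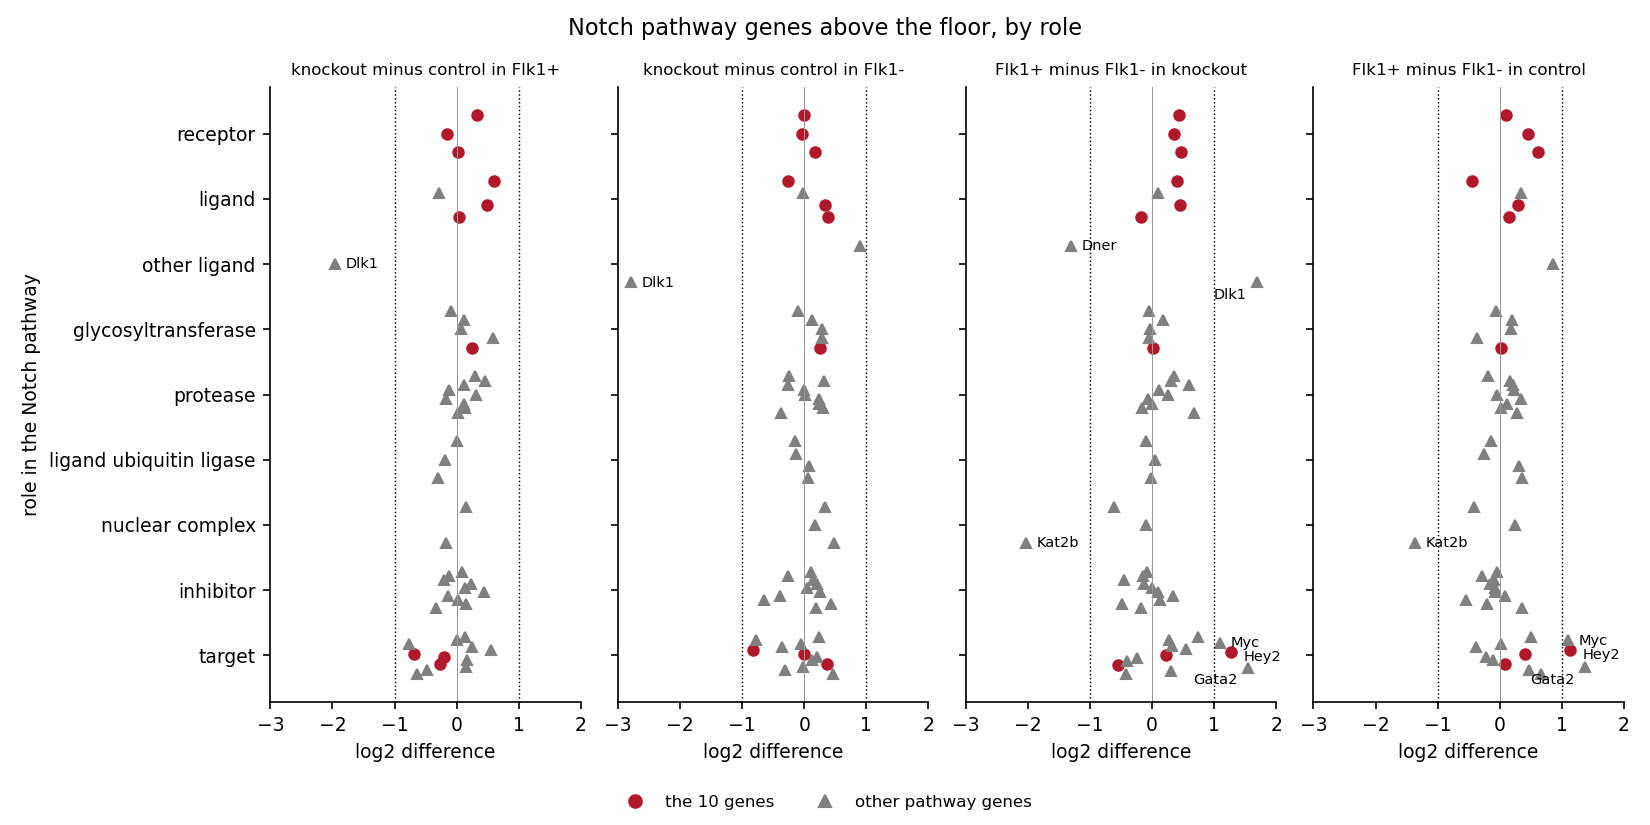
Log2 differences (x axis) in the 4 comparisons (panels) of the 10 Notch pathway genes (red circles) and the other listed pathway genes above the floor (grey triangles), by role (rows), with 2-fold marked by dotted lines. Names stand beside genes past 2-fold: Dlk1 for the genotype, Hey2, Dlk1, Gata2, Myc, Dner and Kat2b for the sort in the knockout, and Hey2, Gata2, Myc and Kat2b for the sort in the control.

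Dlk1, a Delta-like protein without the domain that canonical ligands use to bind Notch and the product of an imprinted gene, was at 5.84 in knockout Flk1+ cells and 4.15 in knockout Flk1- cells, and at 7.79 in control Flk1+ cells and 6.94 in control Flk1- cells. It was lower in the knockout by 3.88-fold in Flk1+ and 6.91-fold in Flk1- cells, and was 1.69 higher on the log2 scale in Flk1+ than in Flk1- cells of the knockout and 0.86 higher in the control. Its only probe set ends in _s_at. Dner, a non-canonical ligand of neurons, was at 2.52 in knockout Flk1+ cells and 3.82 in knockout Flk1- cells and below the floor in the control, at least 1.55-fold lower in Flk1+ cells of the knockout. This Dner probe set ends in _x_at, and the other Dner set was below the floor on every array.

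In the nuclear complex, Kat2b, an acetyltransferase that joins Notch at its target genes, was at 2.84 in knockout Flk1+ cells and 4.86 in knockout Flk1- cells, and at 3.02 in control Flk1+ cells and 4.38 in control Flk1- cells. It was at least 3.18-fold lower in Flk1+ cells in the knockout and at least 2.28-fold lower in the control. This Kat2b probe set ends in _s_at, and 2 other Kat2b probe sets were below the floor on every array. Rbpj, the DNA-binding partner of all Notch receptors, was also lower in Flk1+ cells. Its first probe set was at 5.17 in knockout Flk1+ cells and 5.78 in knockout Flk1- cells, and at 5.02 in control Flk1+ cells and 5.44 in control Flk1- cells. The second Rbpj probe set had sort differences of -1.20 in the knockout and -0.59 in the control. On its first probe set Rbpj was less than 2-fold apart in every comparison, and it is named here after its values were seen.

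Among the further targets, Gata2, a transcription factor of blood and endothelial progenitors, was at 5.00 in knockout Flk1+ cells and 3.46 in knockout Flk1- cells, and at 4.86 in control Flk1+ cells and 3.48 in control Flk1- cells. Its sort differences were 1.55 in the knockout and 1.38 in the control. The second Gata2 probe set had sort differences of 0.83 in the knockout and 0.71 in the control. Myc, a growth regulator that Notch activates in some cell types, was at 7.09 in knockout Flk1+ cells and 5.99 in knockout Flk1- cells, and at 7.86 in control Flk1+ cells and 6.76 in control Flk1- cells. Its sort difference was 1.10 in both genotypes and its genotype difference -0.77 in both fractions. Of the other Hes and Hey genes, Hes6 was above the floor throughout, between 4.80 and 5.21, on a probe set ending in _x_at, and less than 2-fold apart in every comparison, while its other set was between 3.06 and 3.20. Hes2, Hes3, Hes7 and Heyl were below the floor on all 4 arrays, and Hes5 was between 2.97 and 3.36.

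For the other roles, 1 gene each is given by its range over the 4 arrays. It was picked as the one whose probe set had the highest mean, which does not rank the levels of different genes. The endothelial receptor Notch4 was below the floor throughout, at 2.56 to 2.83, and Dll4, the ligand known from arterial and sprouting endothelium, was at 3.62 to 3.99. The glycosyltransferase Rfng was at 4.65 to 4.80, the receptor-cutting protease Adam10 at 6.99 to 7.68, and Mib1, the ubiquitin ligase that makes ligands active, at 6.05 to 6.41. The coactivator Maml1 was at 6.79 to 7.04, the corepressor subunit Hdac1 at 7.92 to 8.28 and Id3, from the target list, at 7.75 to 8.07. None of these 8 genes was 2-fold apart in any of the 4 comparisons.

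On the probe set with the highest mean, Hey2 was the only one of the 10 genes whose values spanned 1 or more on the log2 scale over the 4 arrays. The second sets of Notch1 and Jag1 spanned 1.25 and 1.19. The 3 genes nearest to its pattern, by Euclidean distance between the 4 log2 values after each gene was centred on its mean, were Myc at 0.12, the thrombin receptor gene F2r at 0.16 and Ubash3b at 0.22. F2r was at 8.06 in knockout Flk1+ cells and 6.67 in knockout Flk1- cells, and at 8.53 in control Flk1+ cells and 7.46 in control Flk1- cells. Ubash3b was below the floor in knockout Flk1- cells, at 2.47. With 4 arrays many genes can have a like pattern, so the distance is a description only.

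**Figure D5:**
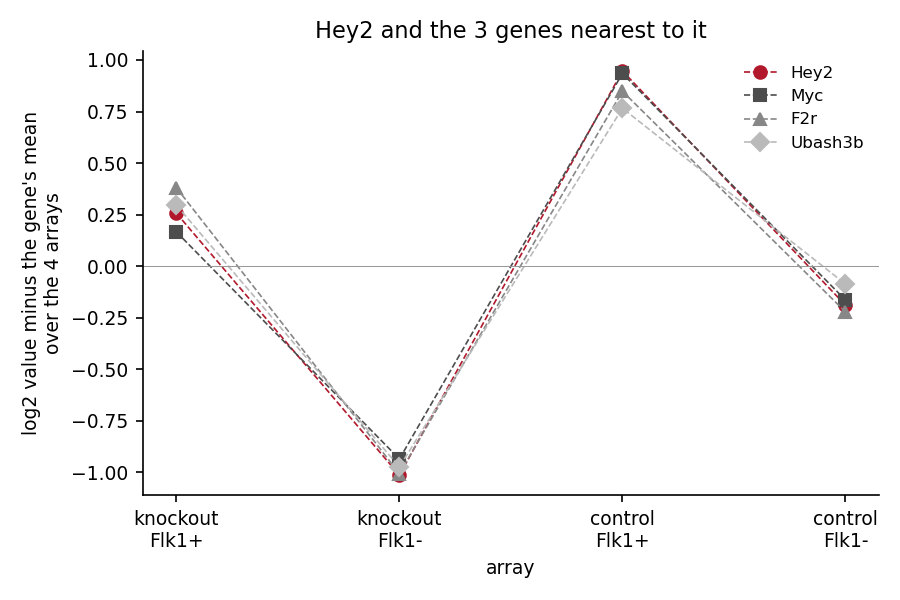
Log2 values minus the mean of each gene (y axis) on the 4 arrays (x axis) for Hey2 and the 3 genes nearest to it, joined by dashed lines as a guide to the eye. All 4 genes are highest in control Flk1+ and lowest in knockout Flk1- cells.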

How the data were processed

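Affymetrix arrays were hybridised with cDNA amplified from 50 ng of total RNA, 1 array for each of 4 groups. The deposited values are log2 expression values per probe set. RMA and limma are named in the submitters' processing notes, without versions or settings. The values were used as deposited, without further normalization. Of 45141 probe sets, 104 were controls, 28898 had 1 gene, 551 had several (not named) and 15588 had none in the platform annotation; 0 symbols needed an update through the RefSeq gene table. Differences of log2 values were computed with Python 3.11.15, numpy 2.4.6 and pandas 2.3.3. A genotype and a sort comparison share 1 array, so their values are not independent; the 2 genotype comparisons share none.

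The genes and lists were chosen with earlier results of these data known. The genes named by rule are all 10 members with every probe set, the other listed pathway genes past 2-fold, the one with the highest mean per role, and the 3 genes nearest to each member with a range of at least 1. Rbpj, the other Hes and Hey genes and the remaining listed targets were named outside this rule. Snai1 and Kdr were named as checks, and further genes as members of the marker lists. Alternatives were fold rules of 1.5 and 3, a floor at the median or none, quantile normalization, median centring, averaging all probe sets of each gene, and omission of sets ending in _s_at or _x_at. The number of arrays limits the precision.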

Additional observations from a re-analysis of the deposited data

Results flagged for a closer look

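For Jag1 the genotype difference had opposite signs in the fractions. Knockout minus control was 0.59 in Flk1+ and -0.26 in Flk1- cells, and the first minus the second was 0.85 on the log2 scale; the second probe set had the same signs. For Hes1, knockout minus control was -0.27 in Flk1+ and 0.37 in Flk1- cells, and the first minus the second was -0.63. Both were picked out because the single array pairs of the fractions moved in opposite directions by at least 1.5-fold between them. Neither difference was tested, since each group has 1 array, and the labels of the knockout Flk1- array name 2 days.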

How the results depend on the processing

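The call of Hey2 by sort held in both genotypes under quantile normalization and median centring. Its log2 difference ranged from 1.27 to 1.42 in the knockout and from 1.14 to 1.17 in the control. The other floors and choices of probe set could not change this difference, since a floor does not alter values and Hey2 has a single probe set. At the 3-fold rule 0 of the 10 genes were called by sort in either genotype. At the 1.5-fold rule the genes called were 2 for the genotype in Flk1+, 1 for the genotype in Flk1-, 1 for the sort in the knockout and 2 for the sort in the control. All genes called at 1.5-fold numbered 818 and 580 for the genotype in Flk1+ and Flk1- cells and 1598 and 876 for the sort in knockout and control cells; at 3-fold they were 59, 42, 108 and 102. Median centring changed the split of all genes called by sort in the knockout to 223 higher and 147 lower, from 173 and 232, and that for the genotype in Flk1+ cells to 120 and 84, from 93 and 104. Without its _s_at set, Notch3 had a difference of -0.38 by sort in the control, -0.37 for the genotype in Flk1- cells and a difference of genotype differences of 0.83. With the mean of probe sets, Jag1 was at -0.82 by sort in the control, Notch1 at 0.86 by sort in the knockout, and Notch3 at -0.14 by sort in the control. Of the differences of genotype differences, those of Notch1, Notch2 and Lfng, all under 0.15 in size, changed sign under at least 1 alternative. No paired analysis was possible because each group has 1 array and the labels give no replicate numbers. No array could be left out, and genotype cannot be told apart from culture or line. Low values near the floor limit what can be read for Lfng and Hes1.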
